A study of Mus musculus with 4 samples.

Results

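The response to kidney ischemia-reperfusion (IR) that wild-type mice and mice labelled Tet2 knockout had in common was read from 4 arrays, which are all 4 arrays of the series. For each gene the mean log2 signal of the 2 IR arrays (WT_IR and Tet2KO_IR) was set against the mean of the 2 sham arrays (WT_Sham and Tet2KO_Sham). As a check of agreement, each IR array was also set against each sham array, which gives 4 differences, and the smallest of them in size was kept. Every probe set with exactly 1 gene symbol was used, 18193 genes in all, of which 13808 had a log2 signal of 5.72 or more (the 40th percentile of all signals, called the floor here) in at least 1 array. These 13808 are the measured genes. Of them, 150 were higher after IR by 2-fold or more in all 4 differences (1.09% of measured genes) and 123 were lower by as much (0.891%). The groups were wild-type sham, wild-type IR, Tet2KO sham and Tet2KO IR. All mice were male C57Bl/6; the IR groups had 60 min of renal ischemia and 24 h of reperfusion, and the sham groups had the surgery alone. RNA of 3 mice was pooled for each array, which leaves no measure of how mice differ; the age of the mice and the kind of Tet2 allele are not given in the sources used here.

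Ischemia cuts the kidney off from blood, and the return of blood adds a burst of oxidants. The proximal tubule, which burns fat and amino acid carbon to drive transport, is the segment known to be hit hardest: its cells lose the brush border, die or dedifferentiate, and surviving cells re-enter the cell cycle to repair the tubule. Havcr1 (KIM-1) and Lcn2 (NGAL) are the standard markers of this injury. TET2 is a dioxygenase that turns 5-methylcytosine into 5-hydroxymethylcytosine, a step toward removal of the mark.

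With 2 arrays a side the statistics are weak. A limma fit of treatment and genotype across 24510 probe sets left 1 residual degree of freedom and called 0% of the measured genes, 0 higher and 0 lower, at a Benjamini-Hochberg adjusted p under 0.05. The smallest adjusted p was 0.358, while 1006 genes were higher and 842 lower at an unadjusted p under 0.05 (3195 of the probe sets, 13.0%). An exact permutation of 4 arrays between the treatments cannot give a two-sided p under 0.333. For the 273 genes at 2-fold in all 4 differences limma's adjusted p lay between 0.358 and 0.389. What follows therefore gives signals, folds and counts as a description of these 4 pools. Below, a pair of values gives wild type first and the knockout-labelled array second, mean differences are IR minus sham on the log2 scale with the standard error (SE) of the limma fit, and "at least" marks a fold in which a signal below the floor was set to the floor. In RNA of a whole kidney, fewer cells of a type and less RNA per cell cannot be told apart.

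The arrays carried the signature of kidney, with log2 signals of Umod, the main urinary protein made by the loop of Henle, between 14.02 and 14.52 on all 4. The signal of Tet2 did not mark the knockout label in the shams, where its probe sets had 9.84 and 9.96 in wild type and 10.25 and 9.87 with the knockout label; whether they lie in a deleted part is not given. In IR they had 9.30 and 9.16 in wild type and 8.60 and 8.74 with the knockout label. The sham arrays were the closest pair (r = 0.993 over all probe sets) and the knockout-labelled pair the farthest apart (r = 0.963). On signals as deposited, the difference between the shams had an SD of 0.29 over genes and that between the IR arrays 0.61. With signals below the floor set to it, the wild-type response had an SD of 0.46 and the knockout-labelled response 0.77.

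Genes past 2-fold in wild type were in large part past it in the knockout-labelled pair too, which had many more such genes. At 2-fold within a genotype, 279 genes were higher in wild type and 824 in the knockout-labelled pair, and 202 were higher in both, which is 72.4% of the wild-type genes and 24.5% of the knockout-labelled ones. On the lower side 295 and 937 genes passed, with 143 in both (48.5% and 15.3%). Only 5 genes were 2-fold higher in wild type and 2-fold lower in the knockout-labelled pair, and 18 were the other way round. Over the 13808 genes the responses of the genotypes, which share no array, correlated with r = 0.548 (Spearman's rho 0.486); genes are not independent replicates. A common direction without regard to size was seen for 3693 genes higher in all 4 differences (26.7%) and 3712 lower (26.9%), and those shares are the background for the gene lists below.

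**Figure D1:**
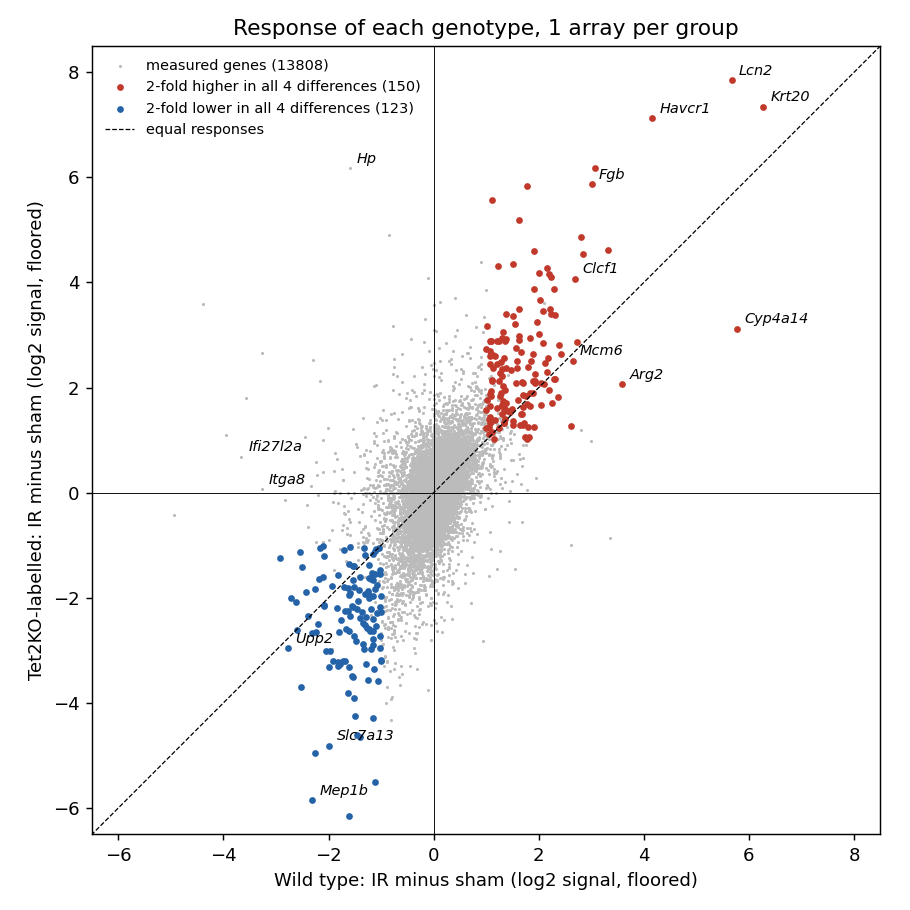
Response of each measured gene in wild type (horizontal axis) and in the knockout-labelled pair (vertical axis), as IR minus sham in log2 signal with signals below the floor set to the floor; red and blue points are the 150 and 123 genes 2-fold higher or lower in all 4 differences, and the dashed line marks equal responses. Of the 150 higher genes, 119 lie above the line, and Krt20, Lcn2 and Havcr1 lie farthest out.

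The size of the common response differed between the genotypes. The knockout-labelled response was the larger one for 119 of the 150 higher genes and 99 of the 123 lower genes. The median of the higher genes was 1.61 in wild type and 2.26 in the knockout-labelled pair, and that of the lower genes was -1.51 and -2.27. At 4-fold in all 4 differences (a smallest difference of 2 or more), 30 higher genes and 11 lower genes remained. At 8-fold (a smallest difference of 3 or more) there were 7 higher genes and 0 lower ones.

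The markers of the injured tubule led the higher genes. That list, like the others, was drawn up with earlier results of these data known. Its overlap with the leading genes is therefore a description and no independent support. All 4 of the genes with the largest smallest difference belong to that list, and 21 of its 26 measured members were higher in all 4 differences, 16 of them by 2-fold, with none lower throughout. Their median mean difference was 2.32, against -0.0083 over all measured genes. Keratin 20, an intermediate filament protein, had log2 signals of 5.77 and 5.0 in the sham arrays and 12.05 and 13.06 in the IR arrays, at least 112-fold in the mean and at least 77.3-fold in the smallest difference. Lcn2, which binds bacterial iron carriers, stood at 6.36 and 5.31 in sham and at 12.03 and 13.57 in IR, at least 108-fold. For both genes the lower IR array was far above the higher sham array.

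Havcr1, a receptor with which tubule cells take up dying neighbours, had 9.52 and 7.0 in the shams and 13.68 and 14.13 in IR, a mean difference of 5.64 ± 0.81 (49.9-fold). The shams themselves differed for this gene, and so its fold was 17.9 within wild type and 139 within the knockout-labelled pair. Annexin A3 had 7.81 and 7.68 in sham and 11.14 and 12.30 in IR (3.97 ± 0.39, 15.7-fold). Cd44, the hyaluronan receptor, had 5.81 and 5.60 against 8.10 and 9.60, at least 8.47-fold; of its other probe sets, one had a mean difference of 2.58, past 2-fold in all 4 differences, and one 1.18 without a common direction. Keratin 8 (Krt8, 11.28 and 11.05 against 13.16 and 13.70), galectin 3 (Lgals3, 10.93 and 10.40 against 13.01 and 13.86) and the TWEAK receptor Tnfrsf12a (8.64 and 8.81 against 10.95 and 12.19) were also past 2-fold in all 4 differences.

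Sox9, a transcription factor of regenerating tubules, passed in direction but not at 2-fold: it had 5.81 and 5.94 in sham and 6.50 and 8.71 in IR. Members without a common direction were Krt19, Vim, Anxa1, Cldn4 and Itgb6. Vimentin, a filament protein of mesenchymal and dedifferentiated cells, had 8.62 and 8.35 in sham but 8.17 and 10.11 in IR, so that the wild-type IR array was below both shams.

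**Figure D2:**
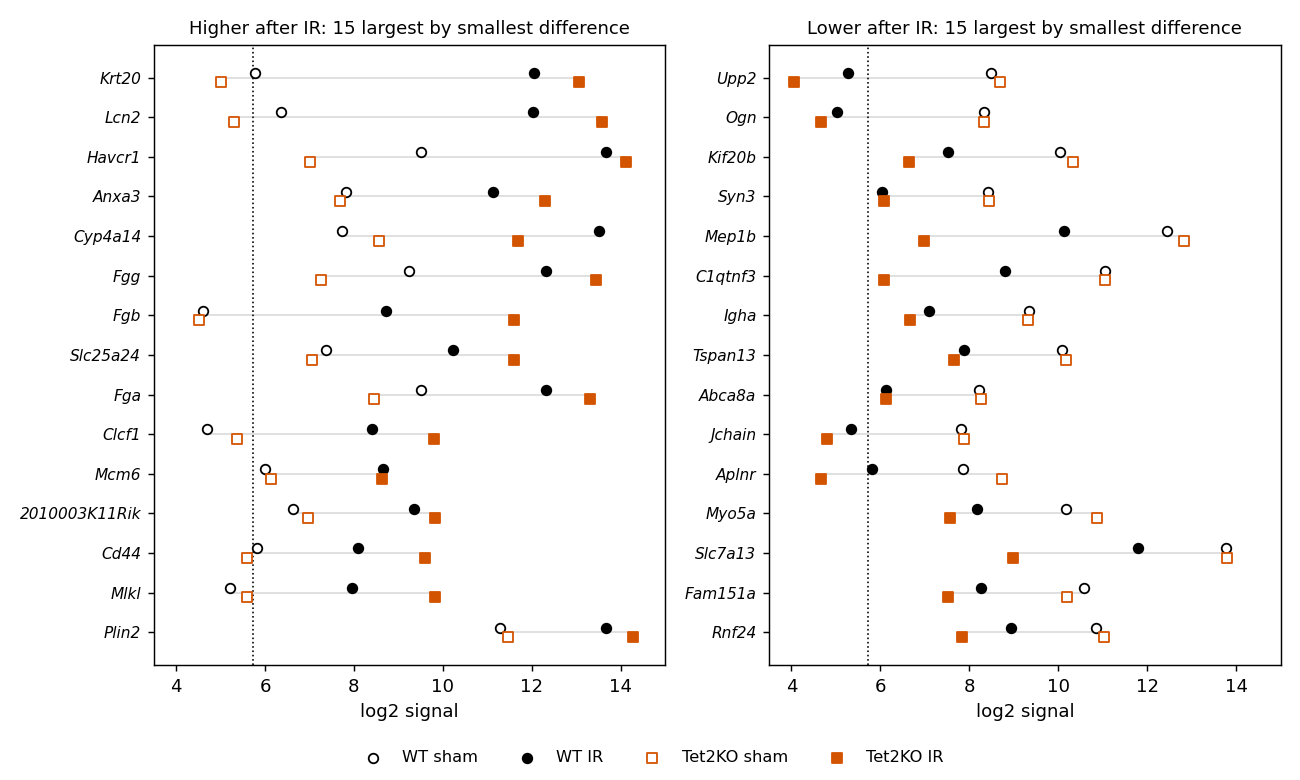
Log2 signal on each of the 4 arrays for the 15 higher and the 15 lower genes with the largest smallest difference; circles are wild type, squares are knockout-labelled, open symbols are sham, filled symbols are IR, and the dotted line is the floor. The 30 genes were chosen for a large smallest difference, so their sham and IR symbols cannot overlap. Krt20 spans 5.0 to 13.06.

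Fibrinogen, the clotting protein that is otherwise made in the liver, was among the clearest common signals. Its chains are encoded next to each other on chromosome 3, in the order Fgg, Fga, Fgb, and all 3 were over 6-fold higher in the smallest difference. The gamma chain gene Fgg had 9.24 and 7.26 in sham and 12.31 and 13.44 in IR (4.62 ± 0.84, 24.7-fold). The alpha chain gene Fga had 9.52 and 8.44 against 12.32 and 13.30 (3.83 ± 0.57, 14.3-fold). The beta chain gene Fgb was below the floor in both shams (4.61 and 4.52) and at 8.73 and 11.59 in IR, at least 21.7-fold. The lower IR array was the wild-type one for each chain.

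Because the chains were higher together, their promoters are shown, from 250 bases before to 50 bases after the start of transcription, 5′ to 3′ on the gene's strand (RefSeq, build GRCm38.p6). Capitals mark TTCNNNGAA, the short palindrome that STAT factors of the IL-6 pathway bind.
Fgg promoter, chr3:83007474-83007773, + strand: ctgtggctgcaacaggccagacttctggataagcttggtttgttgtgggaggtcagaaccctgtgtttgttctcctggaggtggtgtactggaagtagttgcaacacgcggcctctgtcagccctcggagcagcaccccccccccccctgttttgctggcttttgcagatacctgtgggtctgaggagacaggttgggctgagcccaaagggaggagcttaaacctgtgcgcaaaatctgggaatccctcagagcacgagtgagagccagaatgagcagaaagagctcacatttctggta
Fga promoter, chr3:83025903-83026202, + strand: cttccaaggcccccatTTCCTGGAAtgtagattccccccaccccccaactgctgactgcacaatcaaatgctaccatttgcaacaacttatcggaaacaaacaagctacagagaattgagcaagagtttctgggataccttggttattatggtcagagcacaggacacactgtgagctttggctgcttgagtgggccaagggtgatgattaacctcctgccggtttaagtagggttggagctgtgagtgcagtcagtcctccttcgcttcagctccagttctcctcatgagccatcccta
Fgb promoter, chr3:83049814-83050113, - strand: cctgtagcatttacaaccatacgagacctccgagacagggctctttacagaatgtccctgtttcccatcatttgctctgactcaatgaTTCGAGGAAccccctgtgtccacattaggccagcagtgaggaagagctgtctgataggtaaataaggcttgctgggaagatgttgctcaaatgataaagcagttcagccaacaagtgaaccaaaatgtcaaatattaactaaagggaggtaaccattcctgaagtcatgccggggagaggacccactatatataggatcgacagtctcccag
The letters were found in Fga, from position -234 relative to the start, and in Fgb, from -162, and not in this window of Fgg. Over all promoters of measured genes 6.77% held them, and 6.67% of the 150 promoters matched for 123 of the higher genes. The letters were thus about as frequent there as among all promoters.

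Other acute phase genes agreed only in part. Of 14 measured members 7 were higher in all 4 differences and 5 by 2-fold, the fibrinogen chains among them, and 1 was lower. Serum amyloid A1 (Saa1) was nearly the same in both genotypes, with 4.49 and 4.50 in sham, both below the floor, and 7.81 and 7.80 in IR, at least 4.24-fold. Ceruloplasmin (Cp), the copper ferroxidase, had 9.66 and 9.18 against 11.14 and 10.78; of its other 6 probe sets 4 were higher in all 4 differences and 2 were lower, with mean differences of -0.52 and -0.69. Haptoglobin (Hp), which binds free haemoglobin, did not share a direction: it had 7.77 in sham and 6.17 in IR in wild type, but 5.86 in sham and 12.04 in IR with the knockout label. A2m was the lower member, with 6.50 and 6.46 in sham against 5.62 and 5.47. The list's median response was 0.17 in wild type and 1.83 in the knockout-labelled pair.

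Cytokine, chemokine and NF-kappaB feedback genes were higher as a rule and by little: 21 of 28 in all 4 differences, 3 by 2-fold, none lower, with a median mean difference of 0.87. Clcf1, a cytokine of the IL-6 family, was at 4.70 and 5.38 in sham and at 8.41 and 9.79 in IR, at least 10.4-fold; of its other probe sets, one showed 2.19, past 2-fold in all 4 differences, and one 0.45 without a common direction. The neutrophil attractant Cxcl1 had 8.19 and 7.74 against 10.49 and 9.91 (2.23 ± 0.18, 4.70-fold). On the probe set used, this was one of the closest matches between genotypes. The other probe sets of Cxcl1 matched less closely. One had responses of 2.91 in wild type and 3.5 in the knockout-labelled pair, and one had 1.37 and 0.76. Socs3, the feedback inhibitor of the IL-6 receptor, had 6.66 and 6.61 against 7.77 and 8.75. Neither Tnf (6.35 and 6.31 in sham, 6.36 and 6.05 in IR) nor Il1b had a common direction.

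Immediate early genes split. Myc was higher by much the same amount in both genotypes, with 7.26 and 7.15 in sham and 9.42 and 9.71 in IR (2.37 ± 0.20, 5.16-fold). Maff, a small Maf factor, had 6.19 and 6.08 against 7.82 and 9.06 (4.94-fold), and Klf6 had 8.22 and 8.04 against 9.46 and 10.92 (4.18-fold). Fosl1, an AP-1 subunit, was at least 3.57-fold higher, with 5.16 and 5.08 against 6.79 and 8.32. Another probe set of Fosl1 showed 0.86 without a common direction. Of 23 measured members 12 were higher throughout and 2 lower, while others, Fos, Egr1, Junb, Ier2, Jund and Dusp1 among them, were lower after IR in wild type and higher in the knockout-labelled pair. The median response was 0.12 in wild type and 1.76 in the knockout-labelled pair.

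DNA replication genes had a common response of similar size in both genotypes. Of 30 measured members 22 were higher in all 4 differences and 9 by 2-fold, none was lower, and the median response was 0.71 in wild type and 0.65 in the knockout-labelled pair. The 2-fold members included Mcm2, Mcm3, Mcm4, Mcm5 and Mcm6, subunits of the ring-shaped helicase that opens DNA at origins, and Cdt1, which loads that helicase. Mcm6 had 6.01 and 6.13 in sham and 8.65 and 8.64 in IR (2.58 ± 0.16, 5.97-fold). Mcm3 had 6.31 and 6.19 against 8.07 and 8.03 (1.80 ± 0.15, 3.48-fold); its other 3 probe sets showed 1.83, 1.11 and 0.49, the last without a common direction. Cdt1 had 7.44 and 8.22 against 9.70 and 9.93 (1.99 ± 0.23). Pcna, the sliding clamp, had 11.01 and 10.92 against 11.70 and 11.68, in the common direction but under 2-fold.

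The promoters of Mcm6 and Mcm3, the members with the largest smallest difference, are shown with TTTNGCGC, a core of the E2F site, in capitals on either strand (RefSeq, build GRCm38.p6, 5′ to 3′ on the gene's strand).
Mcm6 promoter, chr1:128359656-128359955, - strand: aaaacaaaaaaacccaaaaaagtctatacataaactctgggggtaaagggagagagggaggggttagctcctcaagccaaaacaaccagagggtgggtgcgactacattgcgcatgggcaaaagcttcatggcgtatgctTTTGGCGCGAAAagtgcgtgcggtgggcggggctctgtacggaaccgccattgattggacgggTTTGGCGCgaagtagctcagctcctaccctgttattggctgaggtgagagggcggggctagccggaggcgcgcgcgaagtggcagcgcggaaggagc
Mcm3 promoter, chr1:20820263-20820562, - strand: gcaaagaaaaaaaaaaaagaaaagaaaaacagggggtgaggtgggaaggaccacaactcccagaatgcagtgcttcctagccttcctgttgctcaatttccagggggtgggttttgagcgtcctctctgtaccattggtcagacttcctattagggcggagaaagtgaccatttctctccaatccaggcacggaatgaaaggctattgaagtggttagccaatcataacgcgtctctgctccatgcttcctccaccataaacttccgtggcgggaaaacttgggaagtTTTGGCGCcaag
Mcm6 held 3 matches, from positions -110, -106 and -47, of which the first and second overlap on opposite strands, and Mcm3 held 1 from position 38, after the start. Of the 150 promoters matched for 123 of the higher genes 6.67% held TTTNGCGC, against 2.21% of all promoters of measured genes. None of the 114 promoters matched for 95 of the lower genes did. That is a description of letters in a window, and the higher genes include the replication genes themselves.

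Later cell cycle genes did not follow as a list, although some of them had signals near the floor. Of 18 measured mitosis genes 4 were higher throughout and 3 lower, and the median mean difference was 0.05. Cdk1, the mitotic kinase, had 5.82 and 6.47 in sham against 7.15 and 7.50 in IR (1.18 ± 0.17), and Top2a had 5.61 and 5.96 against 6.63 and 6.46. Aurka, Plk1, Ccnb2 and Ube2c had mean differences of 0.38, -0.13, 0.22 and -0.01. Aurka lay around the floor, with 5.45 and 5.58 in sham and 6.05 and 5.74 in IR, and Top2a was below it in wild-type sham. Small responses are hard to read at such signals. The kinesin Kif20b went the other way, with 10.04 and 10.33 in sham and 7.52 and 6.64 in IR (-3.11 ± 0.35, 8.64-fold lower). The cell cycle inhibitor Cdkn1a (p21), a p53 target, had 7.74 and 7.43 against 9.75 and 11.61 (3.09 ± 0.61, 8.53-fold). Of 19 measured p53 targets 8 were higher throughout, 2 by 2-fold, and 3 were lower; Mdm2, the p53 ligase, had a mean difference of 0.17.

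Genes that build and run the protein machinery were higher by small, even steps. Ribosome biogenesis had 35 of 40 members higher in all 4 differences, the largest share of higher members among the 36 lists, and none lower. Its median was 0.58 in wild type and 0.69 in the knockout-labelled pair, and Nop56, a core protein of the box C/D particles that methylate ribosomal RNA, was its only 2-fold member, with 8.25 and 8.31 against 9.36 and 9.47 (1.13 ± 0.18). Translation factors and tRNA synthetases had 24 of 30 higher and none lower (medians 0.41 and 0.52), led by Eif6, the anti-association factor of the large subunit, with 10.64 and 10.72 against 11.97 and 12.76. The proteasome had 28 of 34 higher and none lower with medians of only 0.32 and 0.36, and none of its members reached 2-fold. Psmd4, a ubiquitin receptor of the cap, had 11.20 and 11.15 against 11.74 and 11.94; its other probe sets showed 0.47, higher throughout, and 0.12. Those shares stand against 26.7% of all measured genes. Of 11 reference genes 5 were higher throughout and 3 lower, with a median mean difference of 0.03. Single reference genes differed by as much as the proteasome medians, with Hprt at 0.49 and Sdha at -0.39.

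**Figure D3:**
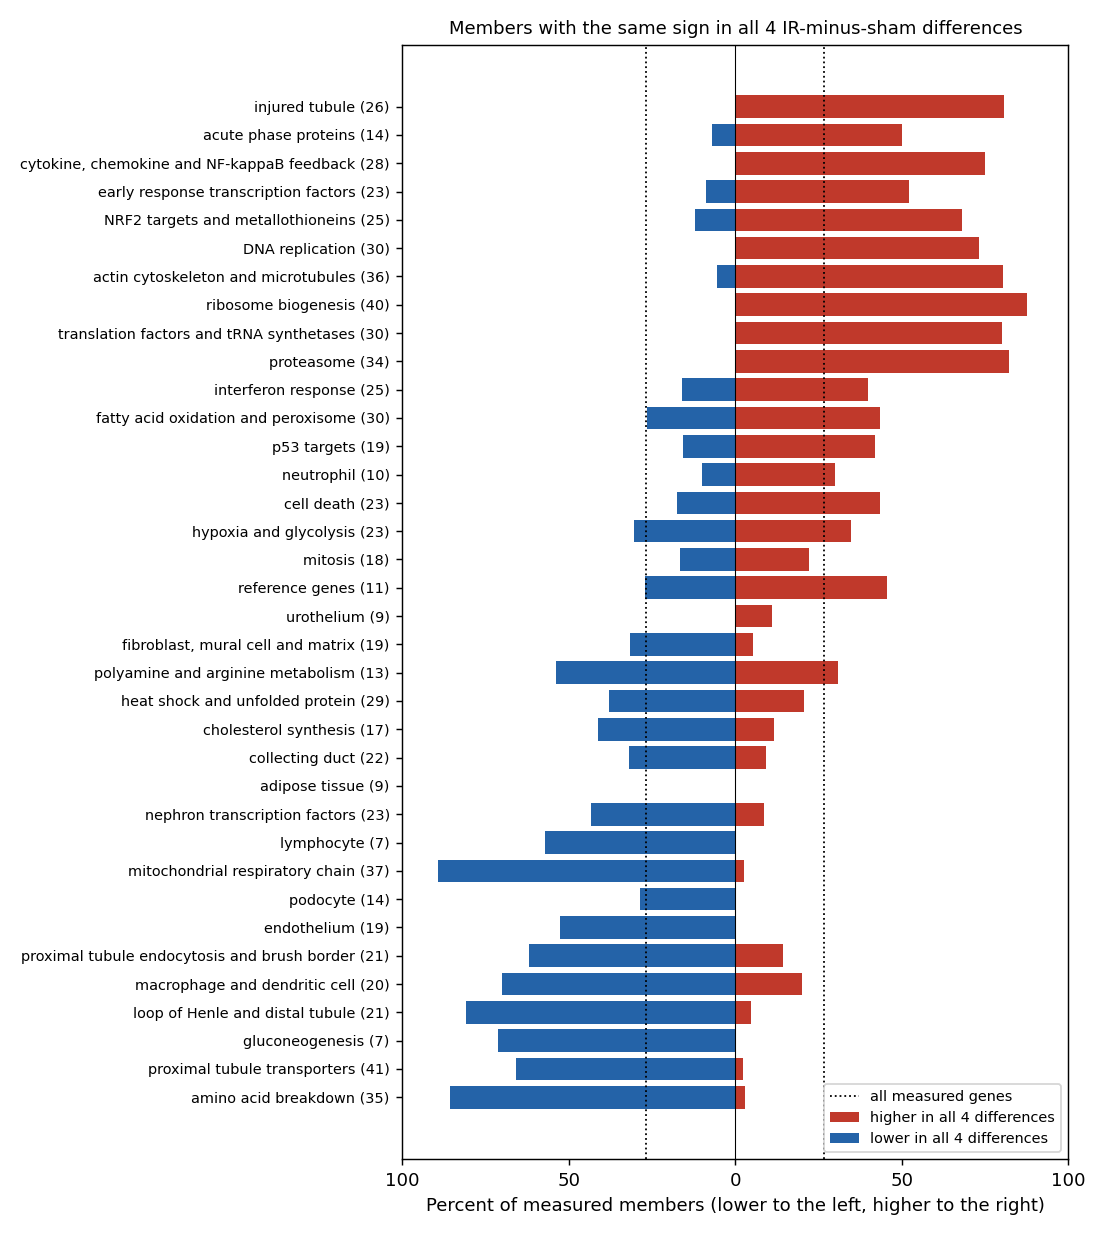
Percent of the measured members of each gene list that were higher (red, to the right) or lower (blue, to the left) after IR in all 4 differences, with the number measured in parentheses and dotted lines at the shares over all measured genes, 26.7% and 26.9%. Ribosome biogenesis, proteasome and injured tubule reach farthest to the right, and the respiratory chain and amino acid breakdown farthest to the left.

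Tubulins led the cytoskeleton. Of 36 members 29 were higher throughout and 6 by 2-fold: Tubb2a, Tubb2b, Tubb5, the actin crosslinker Actn1, Tpm4 and Capg. Tubb2a had 9.82 and 9.53 in sham and 12.03 and 13.02 in IR (2.85 ± 0.39, 7.21-fold). Tubb2a and Tubb2b lie side by side and are nearly alike in sequence, so their probe sets may share transcripts. The lower members were Marcks and Myl9, the regulatory light chain of smooth muscle myosin, which had 9.5 and 9.04 against 7.30 and 9.0. The list's median was 0.30 in wild type and 1.06 in the knockout-labelled pair.

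Defence against oxidants and metals was higher in both genotypes. Of 25 NRF2 targets and metallothioneins 17 were higher throughout, 8 by 2-fold, and 3 were lower, with medians of 0.80 and 1.08. Srxn1, which repairs overoxidised peroxiredoxins, had 8.92 and 9.02 in sham and 11.16 and 12.42 in IR (2.82 ± 0.36, 7.06-fold). The aldo-keto reductase Akr1b8 had 7.75 and 7.13 against 9.67 and 11.01, and the metallothionein Mt2 had 11.08 and 10.94 against 12.91 and 13.87. Haem oxygenase Hmox1 narrowly missed, with a smallest difference of 0.98. Gstm2, a glutathione transferase, was lower, with 10.30 and 9.28 against 8.40 and 7.82.

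Stress chaperones had no common direction as a list. Of 29 heat shock and unfolded protein genes 6 were higher and 11 lower throughout, and the median was 0.02 in wild type and -0.52 in the knockout-labelled pair. Its one 2-fold member was the small heat shock protein Hspb1, with 10.38 and 9.27 against 11.90 and 12.64 (2.44 ± 0.52, 5.44-fold). The list of hypoxia and glycolysis was split too, 8 higher and 7 lower of 23: the glucose transporter Slc2a1 had a mean difference of 0.88, while Vegfa, the classic target of hypoxia-inducible factor, had -0.70.

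Cell death genes held the necroptosis executioner Mlkl, which forms pores in the plasma membrane. It was below the floor in both shams (5.22 and 5.58) and at 7.95 and 9.83 in IR, at least 9.0-fold. Acsl4, which arms membranes with the lipids that oxidise in ferroptosis, had 10.01 and 9.89 against 11.72 and 11.74 (1.78 ± 0.19, 3.43-fold), nearly equal in the genotypes. Over the list 10 of 23 members were higher and 4 lower throughout.

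Some of the leading genes belong to lipid handling. Cyp4a14, a fatty acid omega-hydroxylase and a known target of the lipid sensor PPAR-alpha, had the larger response in wild type, with 7.73 and 8.57 in sham and 13.50 and 11.69 in IR, 54.7-fold in wild type and 8.71-fold in the knockout-labelled pair. Plin2, the coat protein of lipid droplets, had 11.28 and 11.46 against 13.67 and 14.28 (2.60 ± 0.20, 6.07-fold). Slc25a24, a mitochondrial carrier of ATP-Mg and phosphate, had 7.38 and 7.06 against 10.22 and 11.60. Arginase 2 (Arg2), a mitochondrial enzyme that splits arginine, also had its larger response in wild type, with 8.51 and 8.32 against 12.10 and 10.39. In the list of fatty acid oxidation and peroxisome 13 of 30 members were higher and 8 lower throughout, with medians of 0.31 in wild type and -0.06 in the knockout-labelled pair. Acot2 and Acot1, which free fatty acids from coenzyme A, were in the first set (9.60 and 9.94 against 10.88 and 11.34 for Acot2); Acadm, the medium-chain dehydrogenase, was in the second (14.28 and 14.30 against 13.93 and 12.72).

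On the lower side, proximal tubule transporters held the most 2-fold members of any list. Of 41 measured 27 were lower in all 4 differences (26.9% over all genes), 5 by 2-fold, and 1, the sulfate transporter Slc13a1, was higher. Slc7a13, the aspartate and glutamate transporter of the straight segment, had 13.77 and 13.80 in sham and 11.78 and 8.98 in IR (-3.40 ± 0.77, 10.6-fold lower). The phosphate transporter Slc34a3 had 9.67 and 9.35 against 8.07 and 7.41, and the organic anion transporter Slc22a7 had 12.56 and 12.38 against 11.15 and 7.74. The sodium and phosphate cotransporter Slc34a1 was lower throughout, with a mean difference of -1.03, and the glucose transporter Slc5a2 by only -0.28. The list's median was -0.40 in wild type and -1.55 in the knockout-labelled pair.

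The brush border protease meprin beta (Mep1b) had 12.45 and 12.83 in sham, 10.14 in wild-type IR and 6.97 in knockout-labelled IR (-4.08 ± 0.96, 16.9-fold lower). Of 21 genes of endocytosis and brush border 13 were lower throughout and 3, Dab2, Vil1 and Myo7a, were higher. The direction of Dab2, an endocytic adaptor, depended on the probe set: the one used had a mean difference of 0.32, and another was lower in all 4 differences at -0.29. The endocytic receptor megalin (Lrp2) had 13.25 and 13.34 against 12.52 and 11.20; of its other probe sets, one had a mean difference of -1.10, lower in all 4 differences, and one -0.09 without a common direction.

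Metabolic enzymes of the tubule were lower in large numbers, though few by 2-fold in all 4 differences. In amino acid breakdown 30 of 35 were lower throughout and only Gldc, the glycine decarboxylase, was higher. The one 2-fold member was Aadat, an aminotransferase of lysine and kynurenine breakdown, with 12.59 and 12.31 against 10.97 and 9.0 (-2.47 ± 0.48, 5.53-fold lower). The list's medians were -0.38 and -1.43. In the mitochondrial respiratory chain 33 of 37 were lower and 1, Atp5d, higher, with medians of only -0.14 and -0.44; Sdhc of complex II had 12.14 and 12.22 against 11.76 and 11.78. Of 7 genes of gluconeogenesis and fructose handling 5 were lower, among them G6pc, the last step of glucose release, with 12.44 and 12.08 against 11.12 and 9.68, while Pck1 had no common direction.

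Cholesterol synthesis held 2 members past 2-fold, Cyp51 (11.92 and 12.10 against 10.19 and 8.89, 5.53-fold lower) and Idi1 (11.76 and 12.17 against 10.61 and 9.55), yet only 7 of 17 were lower throughout and 2 were higher. Gatm, the first step of creatine synthesis, had 12.63 and 12.40 against 11.28 and 9.51 (4.34-fold lower). Odc1, the entry to polyamines, had 14.12 and 14.08 against 13.20 and 12.74.

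Past the proximal tubule, 17 of 21 genes of the loop of Henle and distal tubule were lower throughout and 1, the kinase Wnk4, was higher. Egf, a growth factor made in the distal nephron, had 13.82 and 13.78 in sham and 12.36 and 9.16 in IR (-3.04 ± 0.85, 8.22-fold lower). Ptger3, a prostaglandin receptor, had 10.21 and 10.10 against 9.02 and 7.88. Another probe set of Ptger3 showed -0.92, without a common direction once the floor was applied. The list's medians were -0.37 and -1.36. In the collecting duct 7 of 22 were lower, near the background of 26.9%, and 2 higher, and the water channel Aqp4 was the only member past 2-fold (10.64 and 10.39 against 8.82 and 7.16, 5.76-fold lower). Of 23 nephron transcription factors 10 were lower and 2, Pax8 and Tfcp2l1, higher, none by 2-fold; Hnf4a had a mean difference of -0.25 without a common direction.

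Some of the lower genes are known from the interstitium, immune cells and vessels, although the lists of endothelium, of fibroblasts, mural cells and matrix and of macrophages and dendritic cells held only 2, 2 and 3 of the 123. Ogn, a small proteoglycan of connective tissue, had 8.33 and 8.33 in sham and was below the floor in IR (5.03 and 4.67), at least 6.10-fold lower. The immunoglobulin A heavy chain Igha had 9.35 and 9.33 against 7.10 and 6.68 (-2.45 ± 0.20, 5.46-fold lower), and Jchain, which joins such antibodies into dimers, had 7.81 and 7.88 against 5.34 and 4.80, at least 4.36-fold lower. The lymphocyte list had only 7 measured members, 4 of them lower and none by 2-fold. The apelin receptor Aplnr had 7.86 and 8.73 against 5.82 and 4.67, and Plvap, the diaphragm protein of capillary windows, had 8.97 and 9.17 against 7.35 and 7.80. Another probe set of Aplnr showed -0.56 without a common direction. In the endothelial list 10 of 19 members were lower throughout and none higher, with medians of -0.85 in wild type and -0.18 in the knockout-labelled pair. The fibroblast genes Dcn and Pdgfra were lower by 2-fold (9.95 and 9.34 against 7.86 and 8.14 for Dcn), but over the fibroblast, mural cell and matrix list only 6 of 19 were lower throughout, near the background. Another probe set of Pdgfra showed -0.34 without a common direction.

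Macrophage and dendritic cell genes went both ways. Of 20 measured 14 were lower throughout, and Csf1r, the receptor on which resident macrophages depend, had 11.34 and 11.40 in sham and 9.98 and 9.13 in IR (-1.81 ± 0.30). The class II gene H2-Aa and the lysozyme gene Lyz2 were lower by 2-fold as well. Cd68, a lysosomal glycoprotein of phagocytes, was higher, with 5.34 and 5.56 against 8.03 and 7.88, at least 4.69-fold, and so was Cd14, the co-receptor for endotoxin (7.29 and 6.48 against 8.79 and 10.84). Of 10 neutrophil markers only S100a8, S100a9 and Il1r2 were higher throughout. S100a8 had 5.58 and 5.09 in sham, 6.95 in wild-type IR and 10.03 in knockout-labelled IR, while Elane, Ltf, Ngp and Camp lay within 0.25 of no difference in the mean. Interferon response genes had 10 of 25 higher and 4 lower, with Isg20, a ribonuclease, alone past 2-fold (6.26 and 6.14 against 8.34 and 9.0).

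A subset of the common genes had responses of similar size, read with signals below the floor set to it. Both shams were below the floor for 21 of the higher genes, and both IR arrays for 8 of the lower ones. The genotypes' responses lay within 0.25 of each other on the log2 scale for 40 of the 150 higher genes and 18 of the 123 lower ones, while they were over 1 apart for 64 and 57. Besides Mcm6, Cxcl1 and Cd68, the even higher genes included Smpdl3b, a membrane phosphodiesterase (8.64 and 8.87 against 11.07 and 11.52), Nrcam, a cell adhesion molecule (5.06 and 5.16 against 7.87 and 8.02; its other probe set showed 0.11) and 2010003K11Rik. The even lower genes included Ogn, Jchain, Upp2, which breaks down uridine (8.49 and 8.68 against 5.27 and 4.05, at least 7.28-fold lower), Syn3, Abca8a and Igfbp5. Ogn, Jchain and Upp2 were below the floor on both IR arrays, so their evenness comes from the floor. Cd68 (5.34 and 5.56) and Nrcam were below it on both shams, so their responses were read from the floor too. The signals of Cd68 as deposited did not meet the limit of 0.25. Cxcl1 met that limit on the probe set used and not on its other probe sets. The deposited IR signals of Upp2 lay farther apart than its shams. Another probe set of Igfbp5 showed -0.07 without a common direction. Abca8a, an ABC transporter, had 8.21 and 8.26 in sham and 6.12 on both IR arrays, and its neighbour Abca9 was also on the lower list.

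**Figure D4:**
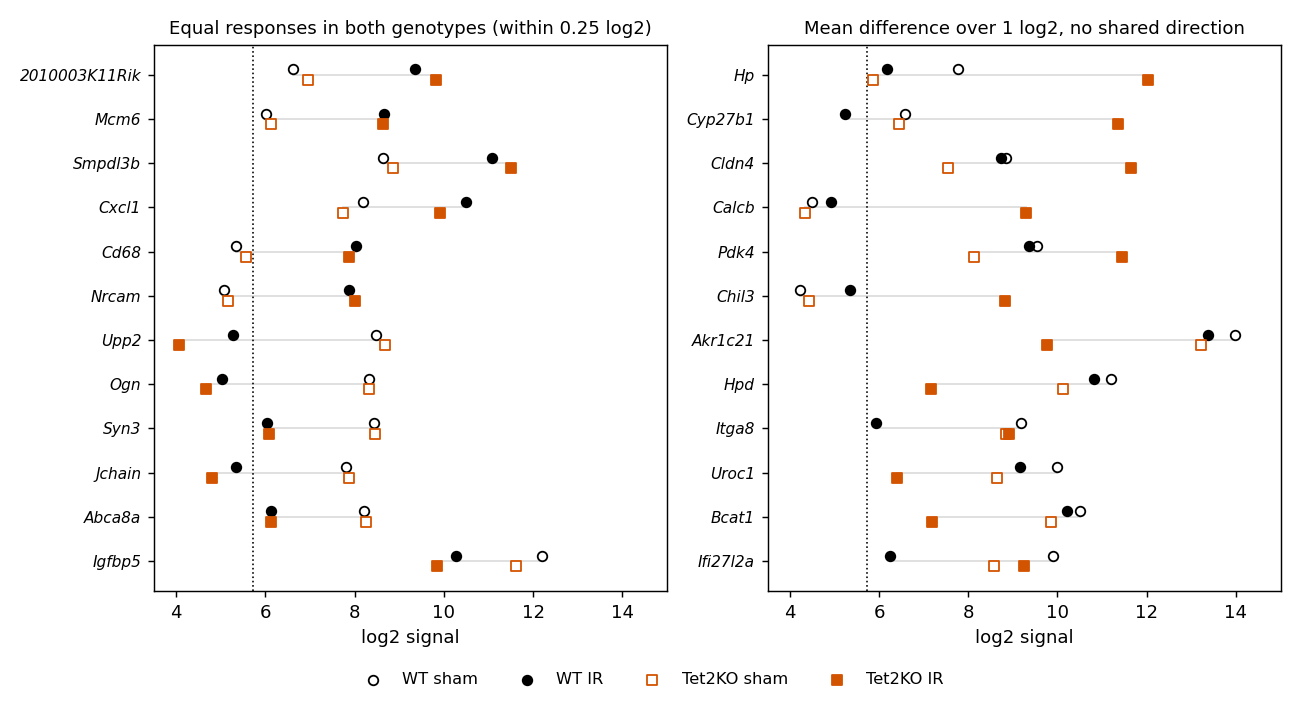
Log2 signal on each of the 4 arrays for 12 genes with equal responses (left) and for 12 genes whose mean difference was over 1 in size although the 4 differences did not share a sign (right); symbols are as named in the legend and the dotted line is the floor. Responses were compared with signals below the floor set to it. On the left the circles and squares of a treatment mostly lie close together above the floor, while Upp2 in IR lies below it at 5.27 and 4.05. On the right the 2 IR arrays, or the shams, lie apart, as for Hp at 6.17 and 12.04.

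The mean over genotypes hid responses that were not shared for other genes. Cyp27b1, which activates vitamin D, had 6.58 and 6.45 in sham, 5.23 in wild-type IR and 11.36 in knockout-labelled IR, so that its mean difference of 1.78 ± 1.66 came from 1 array. Cldn4, a tight junction protein, had 8.84 and 7.55 against 8.73 and 11.64, and Pdk4, which blocks glucose oxidation, had 9.53 and 8.14 against 9.36 and 11.45. Itga8, an integrin of mesangial and smooth muscle cells, had 9.19 and 8.86 against 5.92 and 8.92. A mean difference of 2-fold was reached by 410 higher and 478 lower genes, against the 150 and 123 that also passed in every difference.

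Markers of tissue outside the tubule moved with some arrays. No adipose marker of 9 shared a direction, and their summed linear signal was 8074 in sham and 995 in IR in wild type, but 1737 in sham and 10434 in IR with the knockout label. Adiponectin (Adipoq) had 10.11 in sham and 4.46 in IR in wild type, and 4.19 and 9.31 with the knockout label. Over 14 podocyte markers the sum was 11046 and 11602 in the shams, 7022 in wild-type IR and 10410 in knockout-labelled IR. The urothelial sum ranged from 777 to 2945 over 9 markers, and the sum of 10 neutrophil markers was 668 and 700 in the shams and 850 and 2716 in IR. Plvap, Dcn, Pdgfra, Myl9 and Itga8 had their lowest signal in wild-type IR, as the podocyte sum did, whereas Aplnr and Ogn had theirs in knockout-labelled IR. The part of these tissues in the results was not tested.

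The common genes were checked in other ways that the array allows. Another probe set was present for 71 of the 150 higher genes: of 114 such probe sets 98 were higher in all 4 differences, 53 by 2-fold, and 2 were lower throughout. For 51 of the 123 lower genes there were 67 more, of which 55 were lower, 32 by 2-fold, and 1 was higher. Near the threshold, Stra6l, Adam8 and Rcan1 were just inside on the higher side, at 1.0, and Steap2 at 0.999 and Tsc22d1 at 0.998 just outside; Smarca2 at -1.0 and Lactb2 at -0.991 were the nearest on the lower side. Pairs of neighbours on the chromosome that were on the same list included Mt1 and Mt2, Clcf1 and Pold4, Aen and Isg20, Timd2 and Havcr1, which are of 1 gene family, and Kcnj8 and Abcc9, which encode the pore and the regulatory subunit of a vascular potassium channel (both lower).

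Motif letters in the 300 bases of promoter were counted on both strands for 7 motifs, with 150 promoters matched for 123 of the higher genes, 114 for 95 of the lower genes and 14141 for 11081 measured genes. The AP-1 letters TGANTCA were in 12.7% of higher, 4.39% of lower and 5.49% of all promoters. The NRF2 letters TGACNNNGC were in 16.7%, 7.89% and 14.1%, and the MYC letters CACGTG in 9.33%, 9.65% and 9.54%. The HNF4 letters CAAAGTCCA were in none of the higher, 2.63% of the lower and 0.516% of all promoters, and the HNF1 letters GTTAATNAT in 1.33%, none and 0.53%. The AP-1 and NRF2 letters can share bases, and a match is a description and not a bound site.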

How the data were processed

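Kidney RNA of 4 groups was measured on 1 Affymetrix 3' array each, with RNA of 3 mice pooled per array. The authors deposited 1 log2 signal per probe set and array; the submitters' processing notes name MAS5 with no version, and the scaling method is not given in the sources used here. The values themselves, all within the range of log2 microarray signals, gave the unit. Of 45037 probe sets 34945 carried exactly 1 gene symbol, 932 carried several and 9160 were not listed. A gene was read from its probe set with the highest mean signal, and an _x_at probe set was taken only for the 100 genes without another. Signals below the floor (log2 5.72, linear 52.8) were set to it for folds and for the 4 differences; the mean differences of the limma fit used the signals as deposited. The fit was lmFit and eBayes with a trend in limma 3.58.1 (R 4.3.3) on treatment and genotype, with Benjamini-Hochberg adjustment; it was tested on simulated data. The number of arrays limits the precision, and the prior had 2.56 degrees of freedom.

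Of 918 entries in 36 gene lists, 849 matched a gene on the array, 3 through an older symbol, and 808 were measured. The members and the lists were chosen with earlier results of these data known. Genes were named by rule: the 15 higher and 15 lower with the largest smallest difference, up to 4 per list in the direction of its median and 2 in the other, up to 6 per direction with equal responses or with a mean difference over 1 but no common sign; other list members were named as examples after their values were seen. Promoters came from a RefSeq table of build GRCm38.p6. Alternatives covered the floor, the filter, the scaling, the choice of probe set, the model and leaving out each array. Probe sets with several symbols or none entered no comparison.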

Additional observations from a re-analysis of the deposited data

Results flagged for a closer look

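In a set of genes the wild-type and the knockout-labelled response had opposite signs although the mean over both was over 1 in size. The wild-type responses of Cldn4 and Pdk4 were small (-0.11 and -0.17), as was the knockout-labelled response of Itga8 (0.07). With 1 array per group the difference between the responses was not tested. The knockout-labelled response minus the wild-type response, in log2 signal, was 7.78 for Hp, 5.77 for Cyp27b1, 4.20 for Cldn4 and 3.48 for Pdk4. For Itga8 it was 3.34 and for Ifi27l2a, an interferon-inducible gene, 4.35; these 2 were lower after IR in wild type (from 9.19 to 5.92 and from 9.90 to 6.24) and not in the knockout-labelled pair (from 8.86 to 8.92 and from 8.57 to 9.25).

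For 3 lists the median responses of the genotypes had opposite signs, again not tested. The gap between the medians was 3.59 for adipose tissue (-1.79 in wild type and 1.81 in the knockout-labelled pair), 1.13 for podocytes (-0.72 and 0.41) and 0.985 for urothelium (-0.28 and 0.70).

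Probe sets without exactly 1 listed symbol entered no comparison above. Of 4453 measured ones, 34 were 2-fold higher (0.764%) and 21 were 2-fold lower (0.472%) in all 4 differences.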

How the results depend on the processing

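With 1 array per group, leaving out an array was the alternative that moved the counts most. The count of genes 2-fold higher in every difference left then ranged from 190 to 672 and the count of lower genes from 185 to 750, since fewer differences had to agree. The 150 and 123 genes stayed in each by construction, because the differences left were among the same 4. The limma fit on treatment alone then called between 0 and 1979 genes higher and between 0 and 1931 lower: 1979 and 1931 without wild-type IR, 61 and 59 without knockout-labelled IR, and 0 without either sham. In those fits the lone array of a treatment is assumed to vary like the other pair. Without the genotype term all 4 arrays gave 0 calls, with a smallest adjusted p of 0.127 by limma and 3782 probe sets at an unadjusted p under 0.05. Under the other floors, filters, scaling and probe set choices 111 to 158 genes were higher and 82 to 127 lower at 2-fold, and limma called 0. Not all of the genes stayed. With the floor added to each linear signal, 111 of the 150 and 82 of the 123 did. With the median over the probe sets of a gene, 108 and 92 did. With an array left out, the median of the adipose list ranged from -1.23 to 0.917 against -0.26, turning to 0.917 without wild-type sham and to 0.573 without wild-type IR. That of the podocyte list ranged from -0.938 to 0.285 against -0.36, turning to 0.285 without wild-type IR. The cause was not tested. Of the other list medians and named gene values, 338 and 1967 moved by less than the SD of the 2 responses, and 55 and 224 moved by more. Quantile scaling turned no list median's sign. Signal near the floor limits folds of dim genes, which are given as bounds.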

Other observations

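Of the 150 higher genes 64 belong to one of the gene lists, and of the 123 lower genes 22. The following were chosen from the rest after their values were seen. Uhrf1, which recruits the maintenance DNA methyltransferase to newly copied DNA, was below the floor in both shams (4.76 and 5.12) and at 7.51 and 7.41 in IR, at least 3.33-fold higher. Hells, a chromatin remodeller that DNA methylation depends on, had 4.67 and 5.49 against 7.92 and 7.68, at least 4.22-fold. Chek1, the checkpoint kinase of stalled replication forks, had 5.04 and 5.41 against 7.77 and 7.39, at least 3.62-fold. Another probe set of Chek1 showed 1.63, without a common direction once the floor was applied. In these 3 genes the wild-type IR array was the higher IR array. The tight junction gene Cldn1 had 7.49 and 7.67 in sham and 9.46 and 10.91 in IR (6.10-fold), the chloride channel gene Cftr had 6.80 and 6.69 against 8.65 and 9.19 (4.51-fold), and the phosphate transporter Slc20a1 had 9.47 and 9.44 against 11.41 and 11.53 (4.04-fold).

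On the lower side, Gys2, the liver-type glycogen synthase, had 8.88 and 9.07 against 7.06 and 5.78 (5.90-fold lower). Miox, the first enzyme of inositol breakdown and largely a kidney enzyme, had 13.79 and 13.73 against 12.54 and 11.85 (2.95-fold lower). Cbs, the entry to transsulfuration, had 11.34 and 11.59 against 10.04 and 9.08 (3.75-fold lower), and the aminoacylase Acy1 had 12.45 and 12.61 against 11.11 and 10.13 (3.77-fold lower). No test was made of these genes as a group.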
